A study of Mus musculus with 8 samples.

Results

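Casp1, Casp4, Casp6, Casp8, Pycard and Nlrp3 are 6 genes of the inflammasome and caspase pathways, and their RNA levels were compared in mouse bone marrow-derived macrophages. The members were the probe sets that the platform annotation assigns to these 6 genes and to no other gene, 7 of the 22690 probe sets on the array. Pycard had a pair of probe sets and each of the other genes had 1, and the 6 genes are among 12394 named genes.

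Expression was measured on 8 Affymetrix arrays, 1 for each of 8 groups. All macrophages were grown for 7 days with 10% serum and with M-CSF, which drives marrow cells to the macrophage fate, from mice aged 6 to 8 weeks. Wild-type (WT) cells were from C57BL/6 mice. CD14-deficient cells were from Cd14-/- mice on the C57BL/6 background and lack CD14, a surface protein that passes bacterial lipopolysaccharide (LPS) to its receptor. In each genotype 1 sample was left unstimulated and harvested 24 h after plating, called 0 h here, and the others received 1 µg/ml of LPS for 6 h or 24 h. The LPS is named as smooth for the WT samples and simply as LPS for the Cd14-/- samples. A further pair of WT samples received LPS for 6 h or 24 h with EGTA, a chelator of calcium outside the cell, at 2 mM according to the label of the 24 h sample, while that of the 6 h sample gives no concentration. There was no array with EGTA and without LPS, and none of Cd14-/- cells with EGTA. According to the series' title and design text, the groups were meant to separate effects of calcium influx, and of the calcium-activated transcription factor NFAT, from whatever else CD14 loss and EGTA do. How many mice gave each sample, and whether their cells were pooled, is not stated in these sources. No group has a replicate array, so a difference between 2 arrays has no replicate check and no p-value, and the number of arrays limits the precision.

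Inflammasomes are protein assemblies of the cytosol. A sensor such as NLRP3 joins the adaptor ASC, the product of Pycard, to the protease caspase-1, which cuts the precursors of the cytokines interleukin-1 beta and interleukin-18 and the pore-forming protein gasdermin D. Macrophages are primed for this by Toll-like receptor signals, which are known to raise the transcription of Nlrp3 and Il1b, and a separate stimulus is usually needed for assembly. The arrays measured RNA and neither assembly nor cleavage.

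The members' values are intensities after quantile normalization over the 8 arrays, and differences are on the log2 scale. Intensities of different probe sets were not set against each other, since each probe set has its own brightness. Cd14 ran from 3849 to 12515 on the 5 WT arrays and was at the floor of 38.4 on the 3 Cd14-/- arrays, as the labels require. All 8 macrophage markers checked were above the median of all values, 88.2, with summed intensities from 60056 to 72576. Among markers of other cells, those of B cells, NK cells, mast cells, erythroid cells and dendritic cells were at the floor on all 8 arrays, as were Cd3e, Cd3d, Cd3g and Cd8a of T cells and S100a9 and Ngp of neutrophils. Of 6 neutrophil markers on the array S100a8 and Camp exceeded the median, and the summed list ran from 283 in unstimulated Cd14-/- cells to 768 in Cd14-/- cells after 24 h of LPS. S100a8 read 138, 99.7 and 432 on the WT arrays at 0, 6 and 24 h and 90.6, 236 and 507 on the Cd14-/- arrays, and the part of such cells in the LPS differences was not tested. Of 5 T cell markers Cd4 did, and of 4 fibroblast markers Dcn did, with Col1a1 and Col3a1 at the floor. In bulk RNA, fewer cells expressing a gene and less RNA per cell cannot be told apart. As a measure of how far 2 arrays lay apart, the central 95% of genes differed by -0.58 to 0.60 between LPS with EGTA and LPS alone at 6 h, and by -0.74 to 0.75 at 24 h.

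Nlrp3 encodes the sensor of the assembly. Its intensity on the WT arrays was 174 unstimulated, 437 after 6 h of LPS and 595 after 24 h. With EGTA it was 558 at 6 h and 602 at 24 h. On the Cd14-/- arrays it was 167 unstimulated, 1622 at 6 h and 338 at 24 h. The 2 unstimulated arrays were the lowest of the 8, and the Cd14-/- array at 6 h stood above all the others.

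Pycard encodes the adaptor ASC. Its brighter probe set read 3431, 2547 and 3856 on the WT arrays at 0, 6 and 24 h. With EGTA it read 3073 at 6 h and 3481 at 24 h. On the Cd14-/- arrays it read 3170 at 0 h, 2029 at 6 h and 4125 at 24 h. All 3 arrays at 6 h were below all 5 others, and the whole range over the 8 arrays was 2.03-fold. The other probe set of Pycard stayed between 50.2 and 78.1 on every array, under the median of all values, and was not read further.

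Casp1 encodes the protease that the assembly activates. Its intensity was 2879, 6961 and 8583 on the WT arrays at 0, 6 and 24 h. With EGTA it was 6826 at 6 h and 9196 at 24 h. On the Cd14-/- arrays it was 1810, 4764 and 5113. Each Cd14-/- array was below the WT array of the same time, and the EGTA arrays were close to those with LPS alone.

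Casp4 lies next to Casp1 on chromosome 9 and encodes the caspase that binds LPS inside the cell and acts in the noncanonical inflammasome. On the WT arrays it read 591 unstimulated, 4063 at 6 h and 5146 at 24 h. With EGTA it read 4733 at 6 h and 5895 at 24 h. On the Cd14-/- arrays it read 283 unstimulated, 3843 at 6 h and 1915 at 24 h. Casp4 had the widest range of the 6 genes, 20.8-fold, from unstimulated Cd14-/- cells to WT cells with LPS and EGTA at 24 h. At 6 h the WT and Cd14-/- readings nearly met, while unstimulated and at 24 h the Cd14-/- reading was the lower one.

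Casp8 encodes the initiator caspase of death receptor signalling, which also restrains necroptosis and can cut interleukin-1 beta. Its intensity was 1936, 3439 and 3880 on the WT arrays at 0, 6 and 24 h. With EGTA it was 3643 at 6 h and 3346 at 24 h, and on the Cd14-/- arrays it was 1567, 2365 and 2223. The 4 WT arrays with LPS were above both unstimulated arrays and above both Cd14-/- arrays with LPS. The whole range was 2.48-fold.

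Casp6 encodes a caspase counted among the executioners of apoptosis. It read 191, 408 and 293 on the WT arrays at 0, 6 and 24 h. With EGTA it read 474 at 6 h and 227 at 24 h, and on the Cd14-/- arrays it read 291, 263 and 226. After quantile normalization the 2 WT arrays at 6 h were the highest and the unstimulated WT array was the lowest. The Cd14-/- arrays then lay close together. As deposited this order changed, with 246, 465 and 226 on the WT arrays and 312 and 196 with EGTA. The Cd14-/- arrays read 375, 250 and 248 as deposited.

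**Figure D1:**
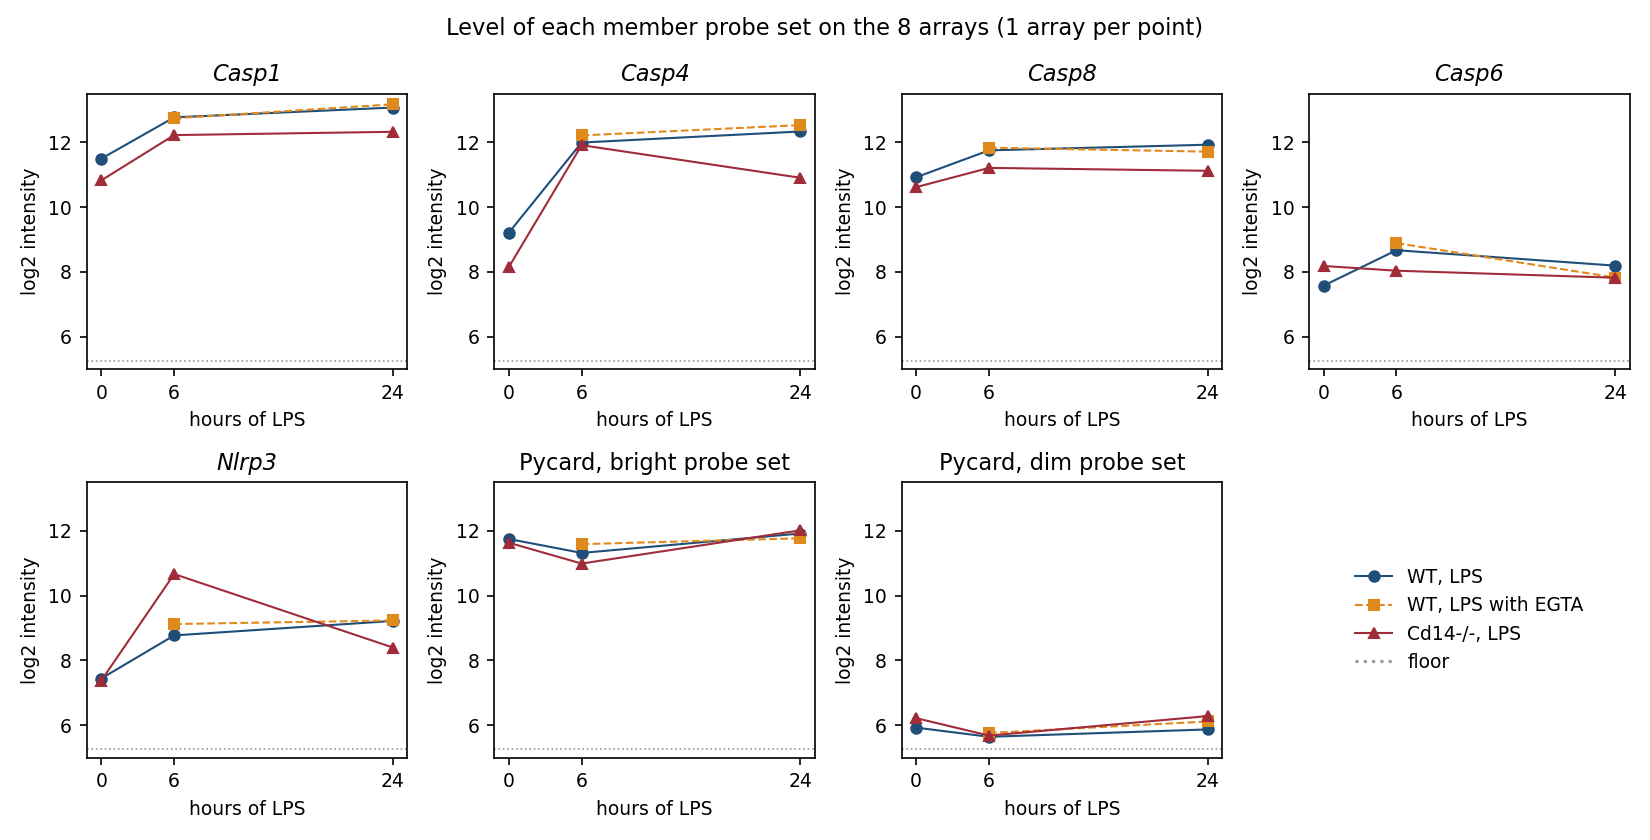
Level of each member probe set as log2 intensity against hours of LPS, 1 array per point, for WT cells with LPS, WT cells with LPS and EGTA, and Cd14-/- cells with LPS, with the floor as a dotted line. Casp1, Casp4 and Casp8 are higher at each LPS point than on the unstimulated array of the same genotype. The EGTA series has no unstimulated array of its own. Nlrp3 has its highest point in Cd14-/- cells at 6 h, and the dim Pycard probe set stays near the floor.

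The Casp4 and Nlrp3 promoters are shown because these genes had the 2 largest differences with LPS among the members, and because Toll-like receptor signals are known to act through the transcription factor NF-kB. The sequences are the 250 bases before a transcription start, from RefSeq, mouse assembly GRCm38.p6. Capitals mark matches to the 10-base NF-kB consensus. All 6 genes were found in the promoter table, Casp4 and Nlrp3 with 2 starts each. The Casp4 window is chr9:5308599-5308848 and the Nlrp3 window is chr11:59541319-59541568, both on the plus strand.
Casp4: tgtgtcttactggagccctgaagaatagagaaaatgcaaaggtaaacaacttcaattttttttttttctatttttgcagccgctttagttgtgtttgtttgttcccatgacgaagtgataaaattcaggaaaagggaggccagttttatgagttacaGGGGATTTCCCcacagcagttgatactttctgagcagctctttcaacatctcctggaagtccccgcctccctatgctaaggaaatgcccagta
Nlrp3: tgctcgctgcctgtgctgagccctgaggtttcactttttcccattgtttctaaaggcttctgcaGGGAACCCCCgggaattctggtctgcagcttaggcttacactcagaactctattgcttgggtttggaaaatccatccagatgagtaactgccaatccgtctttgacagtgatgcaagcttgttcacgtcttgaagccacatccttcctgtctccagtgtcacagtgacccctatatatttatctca

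The Casp4 window held 2 overlapping matches to the NF-kB consensus, from -93 to -84 and from -92 to -83 counted from the start. The Nlrp3 window held 1, from -186 to -177 on the opposite strand. No match to it was found in the windows of Casp1, Casp6, Casp8 and Pycard, nor at the other start of Nlrp3. Both strands were searched, and 3.9% of all 32851 promoter windows of the table held at least 1 match. The NFAT core, GGAAA, was present once in Casp1 and in Casp8, in 2 places in Pycard, in 3 places at each start of Casp4, in 2 places at each start of Nlrp3, and not in Casp6, and 55.6% of all windows hold it. In Casp4 one of these overlaps the NF-kB matches. Neither an interferon-type element, GAAANNGAA, nor a STAT-type element, TTCNNNGAA, was found in any member, against 7.13% and 7.02% of all windows. A match describes the letters of the window and no binding was measured.

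After LPS, Nlrp3, Casp1 and Casp4 were at least 2-fold higher in WT cells at both times. Casp4 had the largest difference, 2.78 at 6 h and 3.12 at 24 h, or 6.88-fold and 8.71-fold. Casp1 was higher by 1.27 and 1.58, and Nlrp3 by 1.33 and 1.77. Casp8 was higher by 0.83 at 6 h and by 1.00 at 24 h, where it only just passed the 2-fold line, and by 0.72 at 24 h as deposited. Casp6 was higher by 1.09 at 6 h and by 0.62 at 24 h, and these values were 0.92 and -0.12 in the intensities as deposited, so that it was then under 2-fold at 6 h. Pycard stood apart, at -0.43 at 6 h and 0.17 at 24 h, with -0.09 at 24 h as deposited.

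At each time 4 of the 6 members passed 2-fold upwards in WT cells and 0 downwards. Of 6936 genes compared at 6 h, 10.5% passed 2-fold upwards and 9.5% downwards, and of 6965 at 24 h, 10.6% and 10.7%. The members' median was 1.18 at 6 h and 1.29 at 24 h, against -0.12 and -0.07 over all genes. Casp4 ranked 106 from the top at 6 h and 77 at 24 h. At 6 h it was the only member outside the range that held the central 95% of genes, -1.62 to 2.29, and at 24 h it was again, with -1.71 to 2.20. In the intensities as deposited the median of all genes was -0.17 at 6 h and -0.66 at 24 h, and that of the members 1.05 and 0.90.

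In Cd14-/- cells Casp4, Nlrp3 and Casp1 were again at least 2-fold higher with LPS at both times, and the other 3 members were not. Casp4 was higher by 3.76 at 6 h and 2.76 at 24 h. Nlrp3 was higher by 3.28 at 6 h, which is 9.74-fold, and by 1.02 at 24 h, or 0.76 as deposited, which is under 2-fold. Casp1 was higher by 2.63-fold and 2.83-fold, close to its values in WT cells. Casp8 was higher by 0.59 and 0.50, Casp6 was at -0.15 and -0.36, and Pycard at -0.64 and 0.38.

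The background in Cd14-/- cells at 6 h was 10.3% of 6929 genes higher and 8.99% lower, and at 24 h 8.29% of 6908 higher and 8.77% lower. Of the 6 members 3 were higher and 0 lower at each time. The members' median was 1.00 at 6 h and 0.76 at 24 h, against -0.13 and -0.04 over all genes. Casp4 ranked 81 and Nlrp3 ranked 105 from the top at 6 h, and Casp4 ranked 132 at 24 h.

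The course from 6 h to 24 h differed between the members. In WT cells with LPS alone the difference of 24 h from 6 h was 0.30 for Casp1, 0.34 for Casp4, 0.45 for Nlrp3 and 0.17 for Casp8. As deposited, these WT arrays at 6 h and 24 h read 8075 and 8180 for Casp1 and 4866 and 4799 for Casp4. They read 501 and 477 for Nlrp3 and 4140 and 3550 for Casp8, so these rises depend on the scaling. The medians of the same arrays as deposited were 97.7 and 67.2. In Cd14-/- cells Nlrp3 was lower by 4.80-fold at 24 h than at 6 h, a difference of -2.26, and Casp4 by 2.01-fold. Casp1 and Casp8 were at 0.10 and -0.09. Casp4 in Cd14-/- cells read 3770 at 6 h and 1988 at 24 h as deposited, which is under 2-fold. Pycard was higher at 24 h than at 6 h in all 3 series, by 0.60 in WT cells, 0.18 with EGTA and 1.02 in Cd14-/- cells. Casp6 was lower at 24 h in all 3, by -0.48, -1.06 and -0.22 in the same order.

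An additive model of time, genotype and EGTA, fitted to the 8 arrays with limma, gave an LPS effect averaged over the conditions. The 3 degrees of freedom left over show how far the arrays stray from additive effects, not how cultures vary, and p-values were adjusted by Benjamini-Hochberg over 11796 probe sets. Of the 6 members 4 rose at 6 h, where 12.5% of probe sets rose, and 3 rose at 24 h, where 12% did. At 6 h Casp4 rose by 3.16 ± 0.33 (SE; limma adjusted p = 0.00314) and Casp1 by 1.297 ± 0.148 (limma adjusted p = 0.00346). Nlrp3 rose by 2.14 ± 0.60 (limma adjusted p = 0.0470) and Casp8 by 0.74 ± 0.17 (limma adjusted p = 0.0255). At 24 h Casp1 rose by 1.58 ± 0.15 (limma adjusted p = 0.00294), Casp4 by 3.05 ± 0.33 (limma adjusted p = 0.00389) and Casp8 by 0.73 ± 0.17 (limma adjusted p = 0.0283).

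Nlrp3 at 24 h did not pass in that fit, at 1.57 ± 0.60 (limma adjusted p = 0.105). As deposited it passed (limma adjusted p = 0.0137) and Casp8 at 24 h did not (limma adjusted p = 0.255). In the fit as deposited all 6 members had the same SE for LPS, 0.386, against 0.604 for Nlrp3 in the main fit. Its p-values rest on this common SE, among them the lowest of Nlrp3 and Casp4 at both times and of Casp1 at 24 h. Over all alternatives the limma adjusted p at 24 h ran from 0.0137 to 0.390 for Nlrp3 and from 0.0143 to 0.255 for Casp8. For Casp1 it ran from 0.00118 to 0.0607 and for Casp4 from 3.16e-11 to 0.0678. Casp6 was at 0.59 ± 0.33 at 6 h (limma adjusted p = 0.224) and 0.01 ± 0.33 at 24 h (limma adjusted p = 0.989). Pycard was at -0.43 ± 0.21 and 0.17 ± 0.21 (limma adjusted p = 0.177 and 0.577). The count of 4 at 6 h became 2 when the 24 h arrays were left out, with Casp1 and Casp4 kept, where 710 of 11796 probe sets rose. Without the 6 h arrays 0 of 11796 probe sets passed at 24 h in the limma fit, with 3322 at an unadjusted p under 0.05, so that the count of 3 became 0. Either leaves 1 residual degree of freedom. Over all alternatives the limma adjusted p at 6 h ran from 0.00260 to 0.0350 for Casp1, from 1.05e-11 to 0.0577 for Casp4, from 0.0138 to 0.265 for Casp8 and from 0.000127 to 0.249 for Nlrp3.

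Between genotypes, the largest member differences were of Nlrp3 at 6 h of LPS and of Casp4 in unstimulated cells and at 24 h. At 6 h Nlrp3 was 3.71-fold higher in Cd14-/- than in WT cells, a difference of 1.89, and at 24 h it was lower, with -0.82. Unstimulated cells differed in Nlrp3 by -0.06. Casp4 was lower in Cd14-/- cells by 2.09-fold unstimulated and by 2.69-fold at 24 h, with differences of -1.06 and -1.43, while at 6 h it differed by -0.08.

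Casp1 was lower in Cd14-/- cells at all 3 times, by -0.67 unstimulated, -0.55 at 6 h and -0.75 at 24 h. Casp8 was lower at all 3 times as well, by -0.31, -0.54 and -0.80. Of the 6 genes these 2 and Casp4 were below the WT array at every time under each scaling tried. Casp6 was higher in unstimulated Cd14-/- cells, with 0.61, and lower at 6 h and 24 h, with -0.63 and -0.37, and the 24 h value was 0.14 as deposited. Pycard was at -0.11, -0.33 and 0.10, and its sign at 24 h changed to -0.25 when arrays were scaled to equal medians.

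Among members 0 were at least 2-fold higher and 1 lower in unstimulated Cd14-/- cells, beside 1.4% and 3.2% of 6782 genes. At 6 h 1 was higher and 0 lower, beside 2.53% and 3.08% of 6761 genes, and at 24 h 0 were higher and 1 lower, beside 5.21% and 6.21% of 6846 genes. The members' medians were -0.21, -0.43 and -0.78 at the 3 times, against 0.02 over all genes at each. Nlrp3 at 6 h ranked 28 from the top and lay outside the central 95% of genes, -1.10 to 1.01. Casp4 at 24 h lay just inside that range, which was -1.512 to 1.302. Unstimulated, the Casp4 and Casp6 differences were inside it, at -1.23 to 0.85. With arrays scaled to equal medians, 3 members were at least 2-fold lower at 24 h, Casp1 by -1.15, Casp4 by -1.78 and Casp8 by -1.14. The median of all genes was then -0.10, and their share at 2-fold was not computed in that scaling. The Casp4 difference in unstimulated cells was -0.98 as deposited and then was under 2-fold.

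In the additive limma fit 0.415% of probe sets, 49 of 11796, changed with CD14 deficiency, and none of the 6 members did. At an unadjusted p under 0.05 there were 3 of the 6, beside 2224 of 11796 probe sets. Casp1 was lower by -0.65 ± 0.13 (limma adjusted p = 0.113), Casp8 by -0.55 ± 0.14 (limma adjusted p = 0.163) and Casp4 by -0.86 ± 0.29 (limma adjusted p = 0.218). Nlrp3, with opposite signs at 6 h and 24 h, was at 0.34 ± 0.52 (limma adjusted p = 0.749). A p that misses the threshold does not show that the genotypes were alike.

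The response to LPS can also be set side by side in both genotypes, with the unstimulated array of each as its own base. For Nlrp3 the response in Cd14-/- cells minus that in WT cells was 1.96 at 6 h and -0.75 at 24 h. For Casp4 it was 0.98 and -0.36, the first with a lower base in Cd14-/- cells and a like level at 6 h. For Casp1 it was 0.12 and -0.08, so that the lower Cd14-/- levels of Casp1 were already there without LPS. For Casp8 it was -0.23 and -0.50, and for Pycard -0.21 and 0.21. For Casp6 it was -1.24 and -0.98, the lowest of the members at both times. None of these differences of differences was tested, since each rests on 4 single arrays. Their sizes at 24 h depend on the scaling. As deposited the 24 h responses in WT and Cd14-/- cells were -0.12 and -0.60 for Casp6 and 1.09 and 0.76 for Nlrp3. With arrays scaled to equal medians those of Pycard were 0.66 and 0.65.

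**Figure D2:**
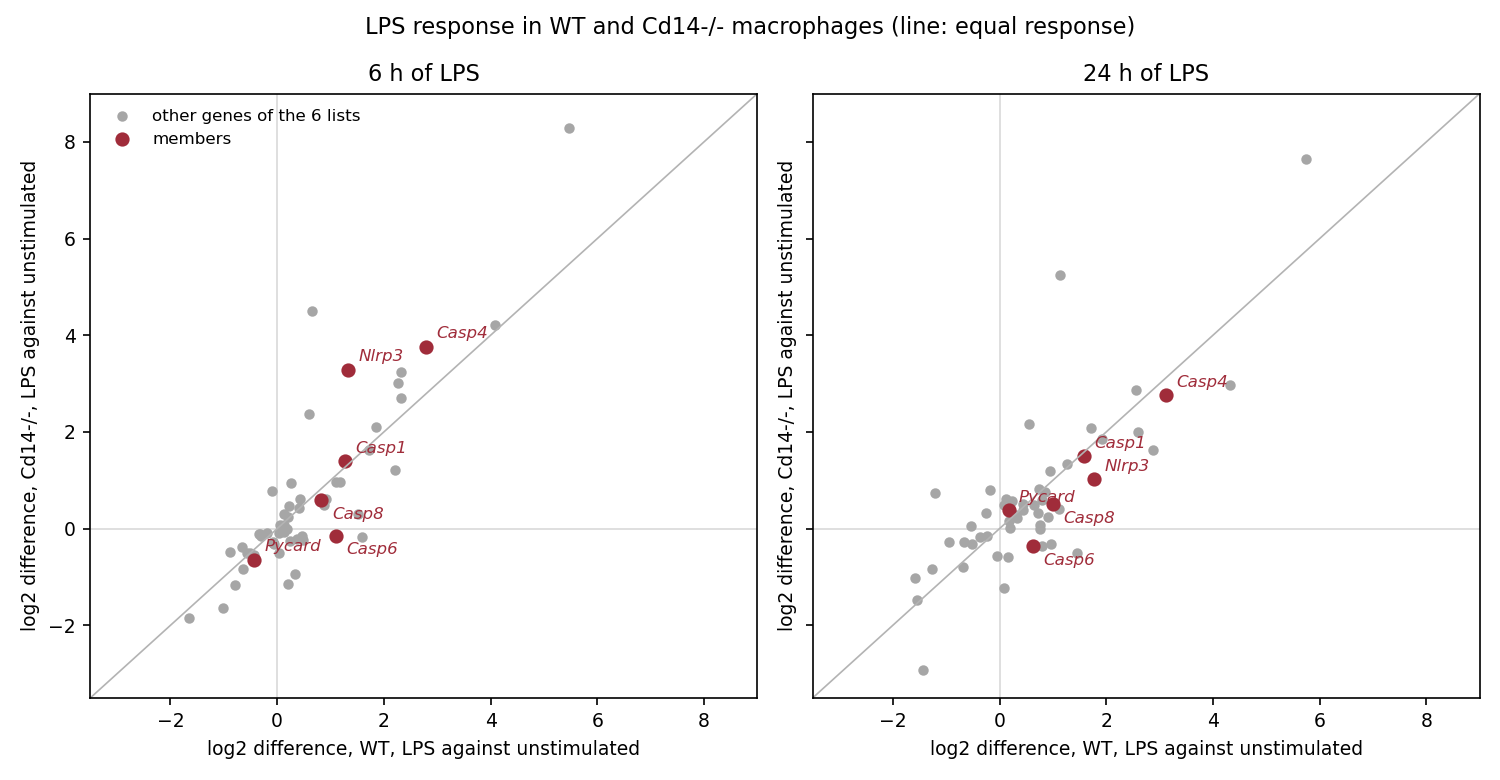
Log2 difference of LPS against unstimulated cells in Cd14-/- (vertical axis) against WT (horizontal axis) at 6 h and 24 h, 1 array against 1 array, for the 6 members in red and the other genes of the 6 pathway lists in grey, with the line of equal response. Nlrp3 and Casp4 lie above the line at 6 h and below it at 24 h, Casp6 lies below it at both times and Casp1 lies close to it; a few grey points have an unstimulated array at the floor and are bounds.

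With EGTA the 6 members were close to their level with LPS alone. At 6 h the differences of LPS with EGTA from LPS alone were 0.35 for Nlrp3, 0.27 for Pycard, 0.22 for Casp4, 0.22 for Casp6, 0.08 for Casp8 and -0.03 for Casp1, but in the intensities as deposited all 6 were between -0.63 and -0.44, where the median of all genes was -0.78. At 24 h they were 0.20 for Casp4, 0.10 for Casp1, 0.02 for Nlrp3, -0.15 for Pycard, -0.21 for Casp8 and -0.37 for Casp6. All of these were inside the range of the central 95% of genes. The largest, Casp6 at 24 h and Nlrp3 at 6 h, were 1.29-fold and 1.28-fold.

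None of the 6 members was at least 2-fold higher or lower with EGTA at either time. The same was true of nearly all genes, as 0.549% of 6740 genes were higher and 0.267% lower at 6 h, and 1.02% of 6754 higher and 1.11% lower at 24 h. The members' median was 0.22 at 6 h and -0.07 at 24 h, beside 0.01 and 0.00 over all genes. In the additive limma fit 0% of probe sets changed with EGTA at the adjusted threshold. At an unadjusted p under 0.05 there were 707 of 11796, with 0 of the 6 members among them. The members' EGTA effects ran from -0.0044 ± 0.17 for Casp8 to 0.16 ± 0.33 for Casp4. The limma adjusted p of all 6 was 0.994 or higher, and over the alternatives it was at least 0.795.

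The comparisons of EGTA and of CD14 deficiency at the same time share the WT array with LPS, so their values are given side by side only. At 6 h Nlrp3 was at 0.35 with EGTA and 1.89 in Cd14-/- cells, Casp1 at -0.03 and -0.55, and Casp8 at 0.08 and -0.54. At 24 h Casp4 was at 0.20 and -1.43, Nlrp3 at 0.02 and -0.82, and Casp1 at 0.10 and -0.75. Casp6 at 24 h was at -0.37 in both, and at -0.20 and 0.14 as deposited.

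**Figure D3:**
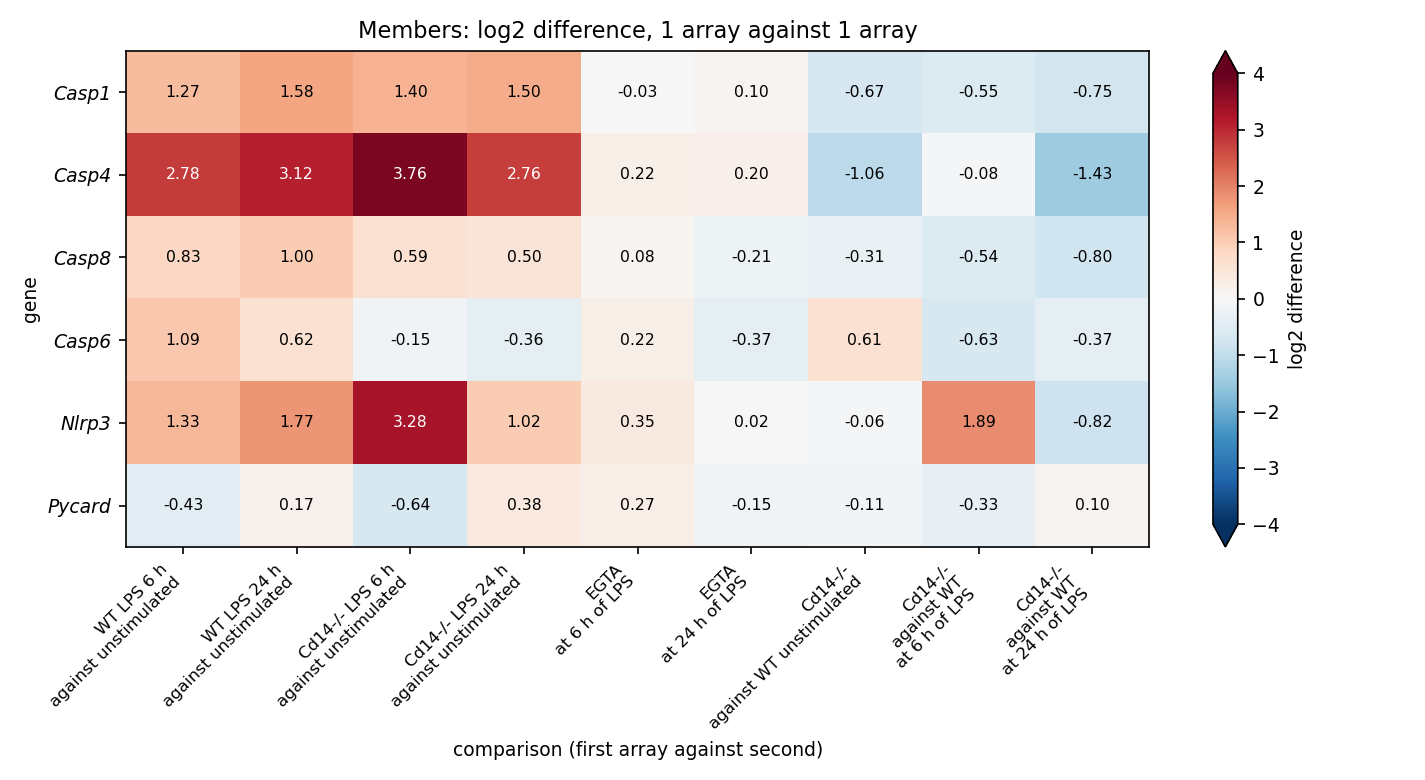
Log2 difference of the 6 members in the 9 comparisons of 1 array with 1 array, red for higher and blue for lower in the first array. The columns with LPS are red for Casp1, Casp4, Casp8 and Nlrp3, the 2 EGTA columns are pale, with values from -0.37 to 0.35, and in the last 3 columns Nlrp3 at 6 h (1.89) and Casp4 at 24 h (-1.43) stand out.

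The members differed in how alike their patterns over the 8 arrays were, given as Pearson's r of log2 intensities and as a description, since the 8 arrays share the LPS contrast. Casp1, Casp4 and Casp8 were alike, with r of 0.964 for Casp1 and Casp4, 0.942 for Casp1 and Casp8 and 0.909 for Casp4 and Casp8. Nlrp3 was nearest to Casp4, with r of 0.809. Pycard was at -0.541 with Nlrp3 and between -0.337 and 0.073 with the 4 caspases. Casp6 was nearest to Casp8, with r of 0.525.

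The genes most like each member were sought among 3886 genes that ranged over at least 1 log2 unit. The pattern of Nlrp3, with its high array in Cd14-/- cells at 6 h, was most like that of Rela, which encodes an NF-kB subunit (r of 0.991), followed by Abr and Bcl10 (0.968 and 0.957). That of Casp4 was most like Slc25a22, Traf2 and Tmem229b (0.996, 0.996 and 0.994). That of Casp1 was most like Themis2, Socs1 and Sh3glb1 (0.991, 0.991 and 0.990). For Casp8 the genes were Vrk2, Eapp and Insl6 (0.993, 0.988 and 0.986). For Casp6 they were Sinhcaf, Casp2, another caspase, and Rfc3 (0.949, 0.941 and 0.937). For Pycard they were Sash3, Tbc1d8 and Fgd2 (0.979, 0.939 and 0.928), and Sash3 alone was above 0.94.

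Beside the members, 77 other genes of their pathways were listed in 6 groups, of which 62 are on the array and 15, among them Gsdmd and Nlrc4, were not analysed here. The closest to the members are the cytokine precursors that caspase-1 cuts and the gasdermins. Il1b, which encodes the interleukin-1 beta precursor, read 101.0, 4472 and 5388 on the WT arrays at 0, 6 and 24 h, and 42.1, 13064 and 8461 on the Cd14-/- arrays, the first of these near the floor. Its array in Cd14-/- cells at 6 h was the highest, as for Nlrp3, with a difference from WT of 1.55. Il18, the other cytokine precursor, was higher with LPS by 1.86 and 1.91 in WT and by 2.10 and 1.84 in Cd14-/- cells. Gsdme, a gasdermin, was at -0.30 and -1.54 in WT and at -0.14 and -1.47 in Cd14-/- cells, so that of the 3 genes of this list Il1b and Il18 were at least 2-fold higher at each time and Gsdme was lower at 24 h, beside the shares of all genes given above.

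Of the other caspases, Casp2 in WT cells was higher with LPS by 1.58 at 6 h and 0.79 at 24 h, while in Cd14-/- cells it was at -0.18 and -0.36, and Casp6 was at -0.15 and -0.36. Casp12 was at the floor in unstimulated cells and higher by at least 2.23 and 1.41 in WT cells with LPS, and it was lower in Cd14-/- than in WT cells at 6 h by -1.99. Casp9 was at -0.63 and 0.31 in WT cells, and Casp14 was at the floor on all arrays.

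Among 14 inflammasome sensors and regulators compared in WT cells at each time, 2 were at least 2-fold higher and 1 lower, beside 10.5% and 9.5% of all genes at 6 h and 10.6% and 10.7% at 24 h. Aim2, a sensor of DNA in the cytosol, was at 2.22 and 1.44, Mefv, which encodes pyrin, at 1.72 and 2.88, and Txnip, a partner of NLRP3, at -1.01 and -1.27. In Cd14-/- cells at 24 h 2 of 15 compared were at least 2-fold lower than in WT cells, beside 6.21% of all genes. These were Aim2 by -1.71 and Mefv by -1.51, while the median of the list was -0.28. Nlrp3 was lower there by -0.82, which is under 2-fold. Trim30a, a negative regulator of NLRP3, was lower in unstimulated Cd14-/- than WT cells by -1.89 and differed by -0.12 and -0.28 at 6 h and 24 h.

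Among 11 caspase-8 partners and death receptor genes compared in WT cells, 4 were at least 2-fold higher with LPS and 1 lower at each time, beside the same shares of all genes. Cflar, which encodes the regulator cFLIP that pairs with caspase-8, was at 2.26 and 1.71 in WT and at 3.01 and 2.08 in Cd14-/- cells. Fas, a death receptor, was at 4.08 and 4.32 and Traf2, an adaptor of the TNF receptor, at 2.32 and 2.59 in WT cells. Fadd, the adaptor that recruits caspase-8, was at -0.51 at both times, and Ripk3, the kinase of necroptosis, at 0.25 and 0.16. In Cd14-/- cells at 24 h 3 of 11 were at least 2-fold lower than in WT cells, beside 6.21% of all genes, Fas by -1.77, Traf2 by -1.06 and Ripk3 by -1.01, beside Casp8 itself at -0.80. Zbp1, a sensor of nucleic acids, was lower in unstimulated Cd14-/- than WT cells by -4.45.

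Of 7 genes of the inhibitors of apoptosis list, Birc3 and Birc2, which act on ubiquitin signalling around caspase-8, were at 2.32 and 1.17 in WT cells at 6 h. Of 14 mitochondrial apoptosis genes compared, Apaf1 alone was at least 2-fold higher in WT cells at 6 h, beside 10.5% of all genes. Apaf1, the scaffold that activates caspase-9, was at 1.52 there and at 0.30 in Cd14-/- cells. With EGTA 1 gene of all 6 lists passed 2-fold, at 24 h, beside 1.02% of all genes higher and 1.11% lower. It was Bbc3 with 1.19, which encodes a protein that promotes apoptosis. Bcl2l11, which encodes another, was at 0.99 and 0.91 with EGTA.

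**Figure D4:**
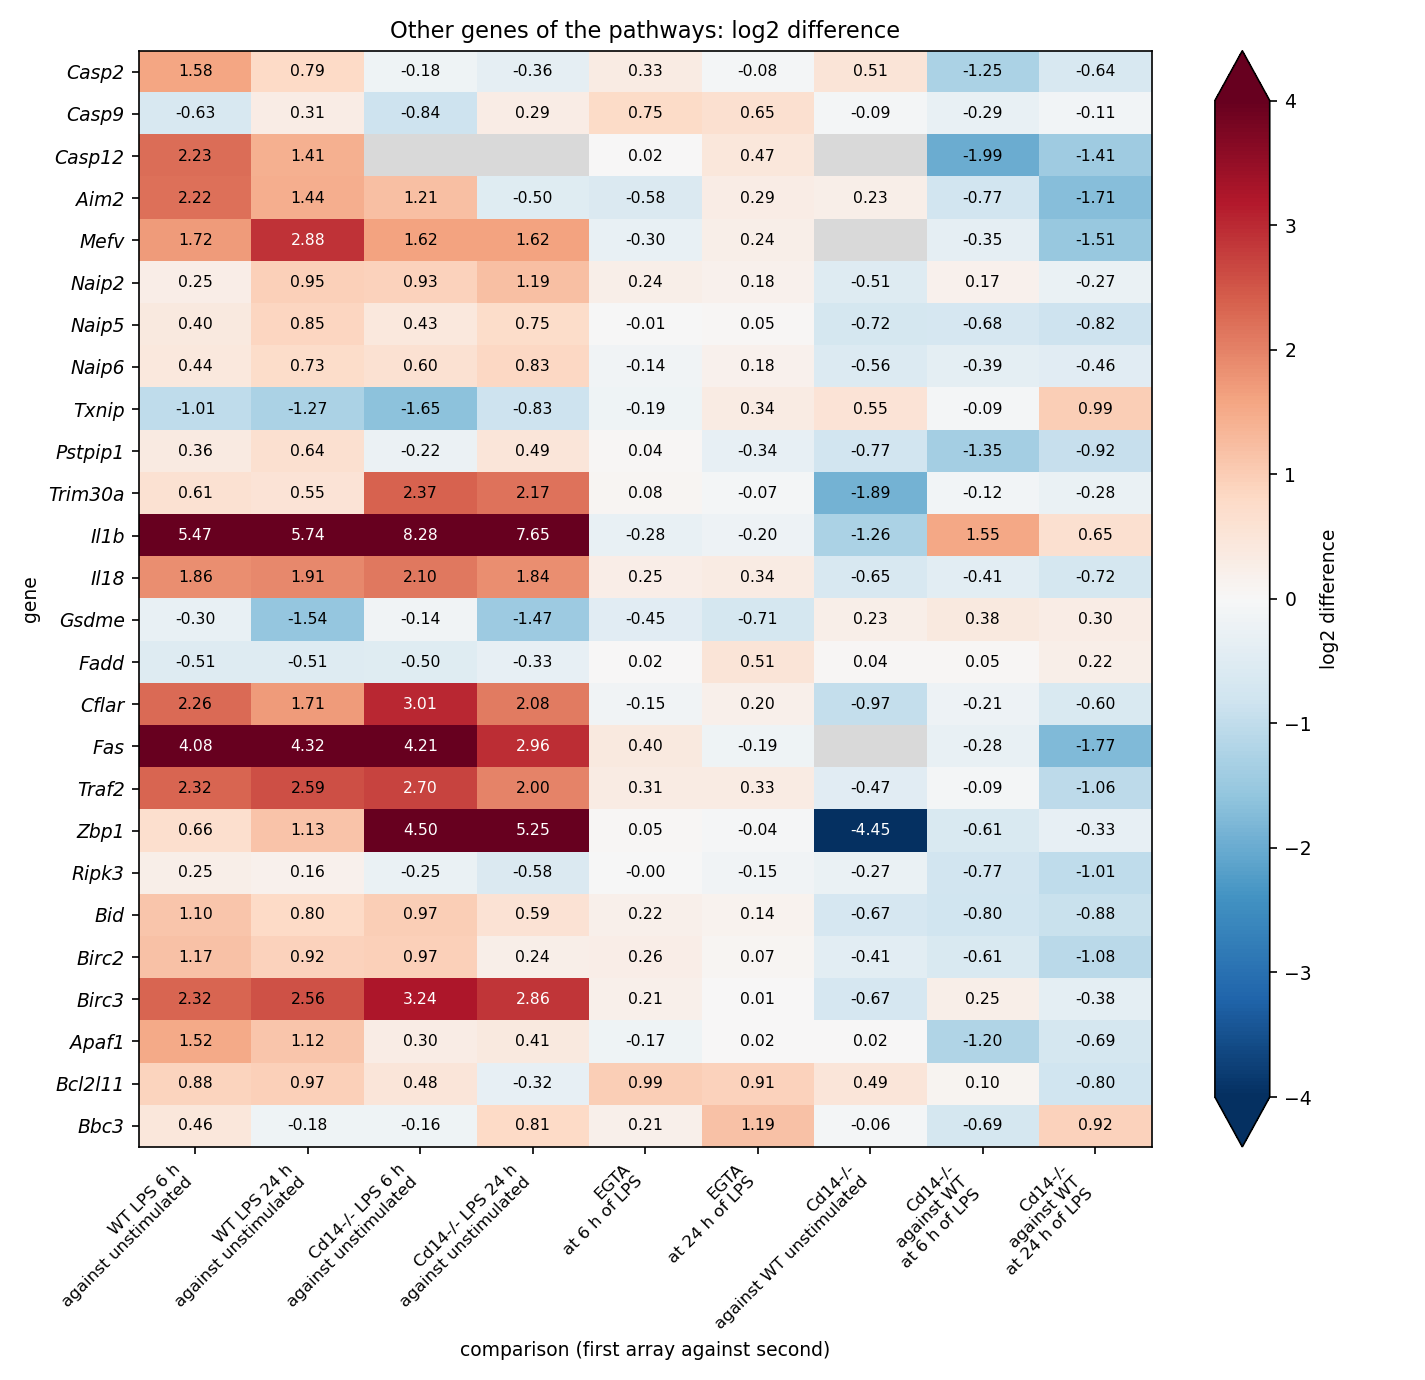
Log2 difference of a selection of the other genes of the pathway lists in the 9 comparisons of 1 array with 1 array, with grey cells where neither array was above the median of all values. Il1b, Fas, Birc3, Cflar and Traf2 are red with LPS in both genotypes, Zbp1 is at -4.45 in unstimulated Cd14-/- cells, and the EGTA columns are pale apart from Bcl2l11 and Bbc3; Casp12, Mefv and Fas values that have an array at the floor are bounds.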

How the data were processed

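The deposited values are linear intensities, made by the authors with MAS5 per the submitters' processing notes, version, scaling target and detection calls not given in the sources used here. They were quantile normalized over the 8 arrays, because the medians as deposited ran from 55.9 to 119, raised to a floor at the 40th percentile (38.4) and taken to log2. RNA integrity numbers were 9.3 to 9.7. Symbols came from the platform annotation, updated by gene identifier through RefSeq (20364 of 20393 probe sets with 1 gene). A gene stood for its probe set with the highest mean. It was compared where the brighter array exceeded 88.2, and counted at 2-fold. The additive fit used limma 3.58.1 in R 4.3.3, on probe sets with an array above 88.2, with a threshold of 0.05 on the adjusted p. On simulated data it called, for CD14 deficiency over 11796 probe sets, 49% of genes changed by a log2 of 1 and 86% by 2. Other steps used Python 3.11.15.

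Members, lists and rules were chosen with earlier results of these data known. Named were the members, Il1b, Il18, Cflar, Fadd, Ripk3, Cd14, the 3 genes most correlated with each member and, from the 2 largest differences of each list in each comparison, those described, which were picked after their values were seen. Casp14 is outside this rule.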

Additional observations from a re-analysis of the deposited data

Results flagged for a closer look

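Some members moved in opposite directions in comparisons of the same kind, made in the other genotype or at another time. Only the Pycard values share their base array. Each value is a log2 difference of 1 array from 1 array, and none of these differences between groups was tested. Casp6 after 24 h of LPS was at 0.62 in WT and -0.36 in Cd14-/- cells. Casp6 in Cd14-/- against WT cells was at 0.61 unstimulated, -0.63 at 6 h and -0.37 at 24 h. Nlrp3 in Cd14-/- against WT cells was at 1.89 at 6 h and -0.82 at 24 h. Pycard in Cd14-/- cells with LPS against unstimulated was at -0.64 at 6 h and 0.38 at 24 h. As deposited, Casp6 was at -0.12 after 24 h of LPS in WT cells, so its opposite directions there depend on the scaling. Between genotypes Casp6 was at 0.14 at 24 h as deposited, so that sign depends on the scaling too. Over all settings it kept its opposite signs unstimulated, 0.54 to 0.61, and at 6 h, -0.89 to -0.63. Nlrp3 was at 1.65 and -0.36 as deposited and Pycard at -0.77 and 0.34.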

How the results depend on the processing

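Member differences were recomputed in other settings, with 0.24 as a yardstick, taken from the 6 h EGTA pair in place of replicates. As deposited 23 of 54 moved by more than this, and with arrays at equal medians 16 of 54 did. The floor and the choice of probe set moved none. They could hardly do so, as no member was at the floor and only Pycard had more than 1 probe set. Of all 324 recomputed, 285 moved by less, 39 by more, and 0 changed the sign of a difference of at least 2-fold. A 2-fold call could still be lost. As deposited this was so of Casp6 in WT cells at 6 h (0.92) and of Casp8 there at 24 h (0.72). It was also so of Nlrp3 in Cd14-/- cells at 24 h (0.76) and of Casp4 between unstimulated genotypes (-0.98). Some smaller differences changed sign between settings, among them those of all 6 members with EGTA at 6 h. Counts of members at 1.5-fold in place of 2-fold were 1 lower for LPS at 6 h in Cd14-/- cells, 1 higher and 2 lower between genotypes unstimulated, 1 lower between genotypes at 6 h and 4 lower at 24 h. As deposited, 0 were at least 2-fold lower between genotypes unstimulated, and at equal medians 3 were lower at 24 h. The shares of all genes at 1.5-fold, or at 2-fold in these scalings, were not computed, so these counts describe the members only. In the additive limma fit 1 member was called at 6 h and 1 at 24 h without the filter on dim probe sets, where 385 and 252 of 20393 probe sets rose. Without the 24 h arrays 2 were called at 6 h, where 710 of 11796 rose, and without the 6 h arrays 0 at 24 h, where 0 of 11796 did. The cause of these changes was not tested, beyond the fewer arrays of the latter fits. The other 139 of 150 counts kept within 1.5 times. Single arrays limit what can be read. No paired analysis was possible because replicate number 1 is the only one in every group, though the additive fit compares conditions within times.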

Other observations

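Other genes of the apoptosis lists also differed with LPS. Birc5, which encodes survivin and is known from dividing cells, was at -0.08 at 6 h and -1.43 at 24 h in WT cells, and at -0.29 and -2.93 in Cd14-/- cells. Tnfrsf21, a death receptor, was at -1.65 and -1.59 in WT cells. Bak1, which encodes a pore-forming protein of the mitochondrial outer membrane, was at 1.27 at 24 h in WT and 1.34 in Cd14-/- cells. Endog, which encodes a mitochondrial nuclease, was at -1.21 at 24 h in WT and 0.73 in Cd14-/- cells, and 1.90 between the genotypes at that time, with the WT array at 24 h at 42.6, next to the floor of 38.4, so these sizes are imprecise. Each value is a log2 difference of 1 array from 1 array.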
